A study of Mus musculus with 12 samples.

Results

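The genes described here encode V1 of the vacuolar ATPase, the peripheral, ATP-hydrolysing sector of this proton pump. They were taken as the rows of the deposited table whose gene maps to 1 of 9 symbols: Atp6v1a, Atp6v1b1, Atp6v1b2, Atp6v1c1, Atp6v1d, Atp6v1e1, Atp6v1f, Atp6v1g1 and Atp6v1h. All 9 were found among the 46072 genes of the table. Atp6v1b1 was listed at 0 in every cell type, so 8 of the 9 carried values and were tested.

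The study sequenced mRNA of 3 myeloid cell types, 12 libraries in all and 4 per type, raised in culture from marrow of C57BL/6J mice (age 6 to 8 weeks). Non-adherent marrow cells kept for 5 days in the growth factor M-CSF at 100 ng/ml gave the precursors of macrophages and osteoclasts. Macrophages were then held in M-CSF at 30 ng/ml, and osteoclasts, the multinucleated cells that resorb bone, in the same M-CSF with RANKL, the osteoclast differentiation cytokine, at 50 ng/ml. Immature dendritic cells were raised from non-adherent marrow cells in GM-CSF at 20 ng/ml, and the differentiation step lasted 8 to 10 days. The osteoclast dishes were treated with Accutase to detach mono-nucleated cells before lysis. The labels name no transgene or deletion, and the cell types differ by cytokine and, for dendritic cells, also by the absence of the M-CSF precursor step. The Accutase step given for the osteoclast dishes is another difference in handling, whose part in the results was not tested. Each experiment took the 3 cell types from the same mouse, in 4 independent extractions of marrow.

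The V-ATPase pumps protons out of the cytosol into lysosomes, endosomes and, in osteoclasts, into the sealed space on the bone surface where acid dissolves mineral. In V1, subunits A and B alternate in a ring of 3 copies of each, and ATP is hydrolysed at sites made mostly by A. Subunits D and F form the central rotor, 3 pairs of E and G form the outer stalks, and C and H link these stalks to the membrane sector, V0. B, C, E and G each have more than 1 gene in the mouse, and B1 is known best from kidney and epididymis epithelium, while B2 is the widely used form in other tissues. MiT/TFE transcription factors, such as TFEB and MITF, are known to bind an E-box motif in many lysosomal promoters.

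RefSeq promoter sequences (build GRCm38.p6, 250 bases before to 50 after the start site) were at hand for 5 of the 9 members, Atp6v1a, Atp6v1b1, Atp6v1d, Atp6v1e1 and Atp6v1f. A pair is printed here because these 2 genes show 2 of the patterns in the data. Atp6v1a was lowest in dendritic cells, and Atp6v1d was higher in osteoclasts than in both other cell types. Both run on the minus strand, at chr16:44139210-44139509 and chr12:78861589-78861888, and are printed 5′ to 3′ with the E-box element TCACGTGA in capitals.
Atp6v1a: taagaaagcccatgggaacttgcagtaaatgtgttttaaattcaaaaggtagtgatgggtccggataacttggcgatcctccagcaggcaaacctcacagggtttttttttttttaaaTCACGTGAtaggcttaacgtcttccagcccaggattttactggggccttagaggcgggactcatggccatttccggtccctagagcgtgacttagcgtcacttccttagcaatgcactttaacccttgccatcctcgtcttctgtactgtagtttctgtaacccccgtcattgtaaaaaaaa
Atp6v1d: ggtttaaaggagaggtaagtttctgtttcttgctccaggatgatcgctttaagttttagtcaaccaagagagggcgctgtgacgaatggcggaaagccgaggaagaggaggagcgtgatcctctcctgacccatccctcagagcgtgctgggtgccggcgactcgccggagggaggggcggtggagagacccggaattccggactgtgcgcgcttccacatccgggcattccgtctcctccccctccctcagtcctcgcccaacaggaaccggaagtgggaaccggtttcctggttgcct
TCACGTGA was found, on either strand, in 0.974% of 32851 promoters of this length. Among the 5 members it was only in that of Atp6v1a, where its first base lay 132 bases before the RefSeq start site. The GENCODE model of Atp6v1a begins farther upstream, at chr16:44139705, so this window lies inside that gene model. The shorter CACGTG, which is part of it, occurred in 7.15% of all promoters and in the same 1 of the 5. The palindromic 10-base CLEAR consensus (0.326% of all promoters), the variant TCATGTGA (0.986%) and the AP-1 motif TGACTCA (5.20%) were in none of the 5. A match describes letters in this window and is not a measured binding site.

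All values are from the authors' deposited table: mean normalised read counts per cell type, log2 fold changes and their p-values, raw and adjusted. Standard errors were worked back from fold change and p-value. A gene was called at an adjusted p under 0.05. The means summed to 24242540, 25022062 and 27731759 normalised reads in osteoclasts, macrophages and dendritic cells. Reads of single libraries were recovered from the arithmetic of the means. Where several sets of reads gave the same mean, those holding 99% of the weight were retained, with weights from the spread that the p-values imply. The libraries are called a to d within each cell type, with no pairing between cell types. Osteoclast markers summed to 12963, 124 and 768 CPM (reads per 1000000 of the summed means) in osteoclasts, macrophages and dendritic cells, and dendritic cell markers to 354, 205 and 14939, with all 9 osteoclast markers above 0 in each. Macrophage markers summed to 4873, 8530 and 2730 CPM in the same order, and of 8 such genes 7 were lower in osteoclasts and 6 in dendritic cells than in macrophages; their part in the results was not tested. Neutrophil markers summed to 519 CPM in dendritic cells against 3.19 and 3.68 in osteoclasts and macrophages, and mast cell markers to 22.1 against 0.432 and 0.262; their part in the results on dendritic cells was not tested. Macrophage library b had H2-Ab1 at 1097 normalised reads against 121 to 591 in the other macrophage libraries. It had Dcstamp, an osteoclast fusion gene, at 384 against 24.6 to 149. Other markers of the same lists went both ways. Ocstamp was highest in library b (31.2), Zbtb46 (11.7) and Ctsk (131) were lowest in it, and Irf4 was highest in library d (224). In bulk RNA, fewer cells of a type and less RNA per cell cannot be told apart.

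The 8 V1 genes were highest in osteoclasts, each by its mean, an order shared by 35.6% of 9302 genes with at least 10 CPM in some cell type. Against macrophages 6 of 8 rose and 0 fell in osteoclasts, where 14.5% of all genes tested were called higher and 14.7% lower. Against dendritic cells 5 of 8 rose and 0 fell, where 16.8% of genes were called higher and 20.1% lower. The 2 ring subunits differed between these comparisons: Atp6v1b2 passed against macrophages and Atp6v1a against dendritic cells. The test of that difference is the comparison of dendritic cells with macrophages, where they were called in opposite directions, among 20.3% of genes called higher and 16.4% lower. The summed means of the 8 genes made up 0.357%, 0.223% and 0.187% of the total in osteoclasts, macrophages and dendritic cells.

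**Figure D1:**
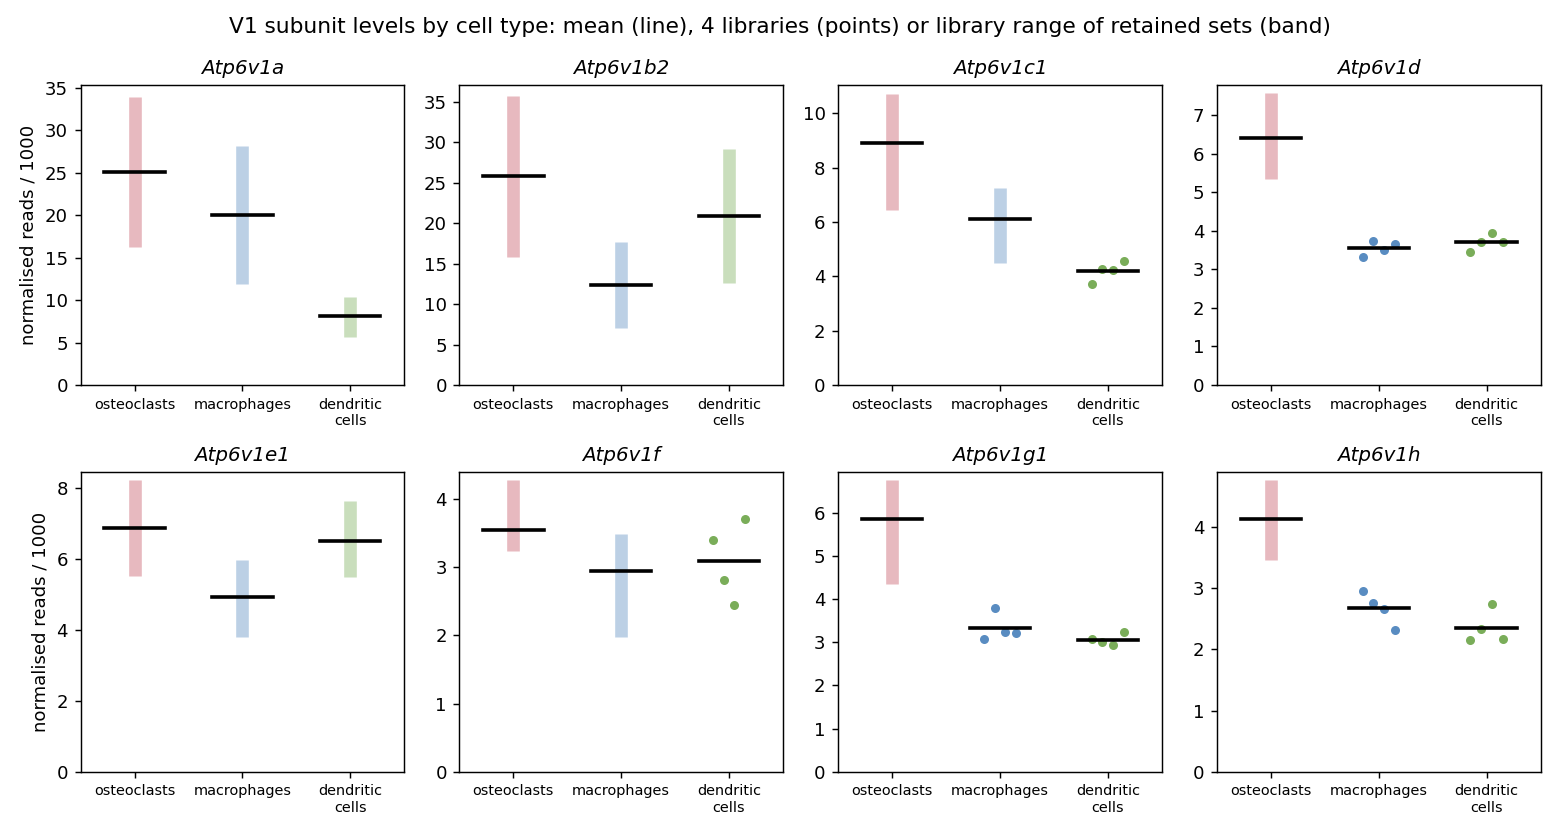
Normalised reads divided by 1000 (y axis from 0) of the 8 detected V1 genes in osteoclasts, macrophages and dendritic cells (x axis). Lines are the authors' means of 4 libraries, points the 4 libraries where reads were recovered, and bands the range of library values over the retained sets of reads. The Atp6v1a band of dendritic cells ends at 10400, below the macrophage band that starts at 11874. Both bands rest on the spread that the p-values imply.

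Atp6v1a (ENSMUSG00000052459, chr16:44085402-44139705, minus strand) encodes A, the catalytic subunit of the ring. Its mean was 25068, 19986 and 8107 normalised reads in osteoclasts, macrophages and dendritic cells. Single libraries could not be fixed at this depth, and over the retained sets the values ran from 16251 to 33892 in osteoclasts, from 11874 to 28087 in macrophages and from 5616 to 10400 in dendritic cells. The retained range of dendritic cells was thus below those of both other cell types, while osteoclasts and macrophages overlapped in some sets. These ranges rest on the spread that the p-values imply, so they add no evidence to the tests that follow. The gene was 3.08-fold higher in osteoclasts than dendritic cells (log2 fold change 1.62 ± 0.15 SE, DESeq2 adjusted p = 4.9e-26). It was lower in dendritic cells than in macrophages (-1.30 ± 0.15, DESeq2 adjusted p = 6.3e-17). Osteoclasts and macrophages differed by 0.33 ± 0.15, which did not pass the test (DESeq2 adjusted p = 0.086, 95% interval 0.03 to 0.62).

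Atp6v1b2 (ENSMUSG00000006273, chr8:69088646-69113711, plus strand) encodes B2, the partner of A in the ring. Its mean was 25786, 12338 and 20920 in osteoclasts, macrophages and dendritic cells, so here macrophages were the low group. The library values over the retained sets were 15867 to 35653, 7100 to 17679 and 12550 to 29129 in that order of cell types, and these ranges met, so separation of the libraries could not be read. Atp6v1b2 was 2.08-fold higher in osteoclasts than in macrophages (log2 1.06 ± 0.16, DESeq2 adjusted p = 1.3e-09). It was also higher in dendritic cells than in macrophages (0.76 ± 0.16, DESeq2 adjusted p = 1.5e-05). The difference of 0.30 ± 0.16 between osteoclasts and dendritic cells did not pass (adjusted p = 0.14, interval -0.01 to 0.61).

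Atp6v1b1 (ENSMUSG00000006269, chr6:83742990-83758855, plus strand), the B isoform of acid-secreting epithelia, had no read in any of the 12 libraries. A count of 0 over the 4 libraries of a cell type allows up to 0.0309, 0.0300 and 0.0270 CPM in osteoclasts, macrophages and dendritic cells, counting error only. Of 4 epithelial markers, Slc4a1 and Cdh16 were also at 0 in all 3 cell types, and the 4 together summed to 0.649, 0.0586 and 2.19 CPM. B was therefore read from Atp6v1b2 alone in these cells.

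The rotor genes differed in their calls, while the difference between the 2 genes was not tested. Atp6v1d (ENSMUSG00000021114, chr12:78840725-78861638, minus strand), which encodes the shaft subunit D, had means of 6403, 3553 and 3699 in osteoclasts, macrophages and dendritic cells. The macrophage libraries held 3317, 3726, 3496 and 3672 normalised reads (a to d) and the dendritic cell libraries 3446, 3713, 3933 and 3703. The osteoclast libraries lay between 5336 and 7573, above every library of the other cell types. Atp6v1d was 1.80-fold higher in osteoclasts than in macrophages (log2 0.85 ± 0.11, DESeq2 adjusted p = 2.5e-12) and 1.73-fold higher than in dendritic cells (0.79 ± 0.11, adjusted p = 2.8e-11). Macrophages and dendritic cells overlapped and differed by 0.06 ± 0.11 (adjusted p = 0.76).

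Atp6v1f (ENSMUSG00000004285, chr6:29467718-29470512, plus strand), which encodes F, the subunit seated on the shaft, was called in none of the 3 comparisons. Its means were 3546, 2942 and 3090, and the dendritic cell libraries held 3396, 2814, 2443 and 3706 normalised reads. In these libraries the SD was 18.4% of the mean, against 5.38% for Atp6v1d in the same cells. In the leading solutions it was 13.1% against 5.22% in macrophages, but 8.96% against 9.09% in osteoclasts. The sets were weighted by the implied spread of each gene, so no conclusion is drawn from these SDs. Atp6v1f differed by 0.27 ± 0.15 between osteoclasts and macrophages (DESeq2 adjusted p = 0.20, interval -0.03 to 0.57). Against dendritic cells the osteoclast difference was 0.20 ± 0.15 (adjusted p = 0.34, interval -0.11 to 0.50).

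The stalk genes Atp6v1e1 and Atp6v1g1, whose products pair with each other, differed in dendritic cells. Atp6v1e1 (ENSMUSG00000019210, chr6:120794305-120822793, minus strand) had means of 6879, 4929 and 6493. It was higher than in macrophages both in osteoclasts (log2 0.48 ± 0.10, DESeq2 adjusted p = 2.9e-05) and in dendritic cells (0.40 ± 0.10, adjusted p = 4.6e-04). Osteoclasts and dendritic cells differed by 0.08 ± 0.10 (adjusted p = 0.58, interval -0.12 to 0.28), and their libraries overlapped in every retained set. Its macrophage reads were nearly fixed, at 4849, 4979, 4961 and 4925 in the leading solution, while a second solution runs from 3788 to 5967.

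Atp6v1g1 (ENSMUSG00000039105, chr4:63544772-63550750, plus strand) had means of 5860, 3332 and 3060. The macrophage libraries held 3076, 3793, 3246 and 3213 normalised reads, library b being the highest, and the dendritic cell libraries 3065, 3012, 2925 and 3237. The osteoclast libraries lay between 4342 and 6757, above all of these, with library a the lowest in both retained sets. Atp6v1g1 was 1.75-fold higher in osteoclasts than in macrophages (0.81 ± 0.14, DESeq2 adjusted p = 4.6e-08) and 1.91-fold higher than in dendritic cells (0.93 ± 0.14, adjusted p = 6.5e-11). Dendritic cells and macrophages differed by -0.12 ± 0.14 (adjusted p = 0.54).

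The linker genes Atp6v1c1 and Atp6v1h rose in osteoclasts against both cell types. Atp6v1c1 (ENSMUSG00000022295, chr15:38661933-38692446, plus strand) encodes C1, the foot that joins the stalks to V0 and is released when the pump comes apart. Its means were 8914, 6125 and 4186, and the dendritic cell libraries held 3711, 4250, 4222 and 4563. The osteoclast libraries lay between 6438 and 10689, above all dendritic cell libraries. Atp6v1c1 was 2.12-fold higher in osteoclasts than dendritic cells (1.09 ± 0.12, DESeq2 adjusted p = 3.3e-18) and 1.45-fold higher than in macrophages (0.54 ± 0.12, adjusted p = 7.2e-05). It was the other gene, with Atp6v1a, that was lower in dendritic cells than in macrophages (-0.55 ± 0.12, adjusted p = 3.2e-05).

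Atp6v1h (ENSMUSG00000033793, chr1:5070018-5162529, plus strand) encodes H, the subunit known to silence ATP hydrolysis in free V1. Its means were 4126, 2670 and 2352. The macrophage libraries held 2953, 2751, 2656 and 2322 normalised reads and the dendritic cell libraries 2161, 2336, 2735 and 2177, so these groups overlapped. The osteoclast libraries lay between 3456 and 4774, above all of them. Atp6v1h was higher in osteoclasts by 0.63 ± 0.13 against macrophages (DESeq2 adjusted p = 2.2e-05) and by 0.81 ± 0.13 against dendritic cells (adjusted p = 7.4e-09). Its exons overlap those of Rgs20 on the other strand, whose means were 15.5, 3.18 and 4.59.

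In osteoclasts against macrophages, 29.3% of the 17822 genes tested were called in either direction, and 6 of 8 members were. Among the 4499 genes with means of 1000 or more in both cell types, the share called higher was 17.7%. The median log2 fold change of the 8 was 0.58, and that of all genes tested was -0.03. The libraries of the 2 cell types did not overlap in any retained set for Atp6v1d, Atp6v1g1 and Atp6v1h. Of genes with means from 1000 to 10000, 14.7% were likewise separate with osteoclasts higher. The retained sets rest on the spread implied by the p-values, so this separation adds no evidence to the tests. Without macrophage library b the log2 ratio of the means was 0.87 for Atp6v1d, 0.88 for Atp6v1g1 and 0.64 for Atp6v1h, against 0.85, 0.81 and 0.63 with it.

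Against dendritic cells 36.9% of 21217 genes were called in either direction, and 5 of 8 members were. The share called higher was 24.4% among genes with means of 1000 or more in both. The median of the 8 was 0.80, and that of all genes was -0.05. The libraries were separate in every retained set for Atp6v1c1, Atp6v1d, Atp6v1g1 and Atp6v1h. Of genes with means from 1000 to 10000, 20.8% were separate with osteoclasts higher. The ranges of Atp6v1a were separate too, and its osteoclast mean is above 10000. For Atp6v1a and the genes just named, the retained sets rest on the spread implied by the p-values. Their separation therefore adds no evidence to the tests. When the totals of the 2 cell types were made equal, which moves all fold changes by 0.19, 8 of 8 were called higher, with Atp6v1b2 at 0.49, Atp6v1f at 0.39 and Atp6v1e1 at 0.28. Under that scaling 25.1% of all genes were called higher and 15.8% lower.

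Between dendritic cells and macrophages 2 of 8 were called higher in dendritic cells (Atp6v1b2 and Atp6v1e1) and 2 lower (Atp6v1a and Atp6v1c1). Of 20730 genes tested 36.7% were called in either direction, and among genes with means of 1000 or more in both the share called in either direction was 47.6%. The 4 of 8 called here were thus near that background. The median of the 8 was -0.03. The 3 comparisons share their samples, so their values stand side by side and are not independent of each other.

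**Figure D2:**
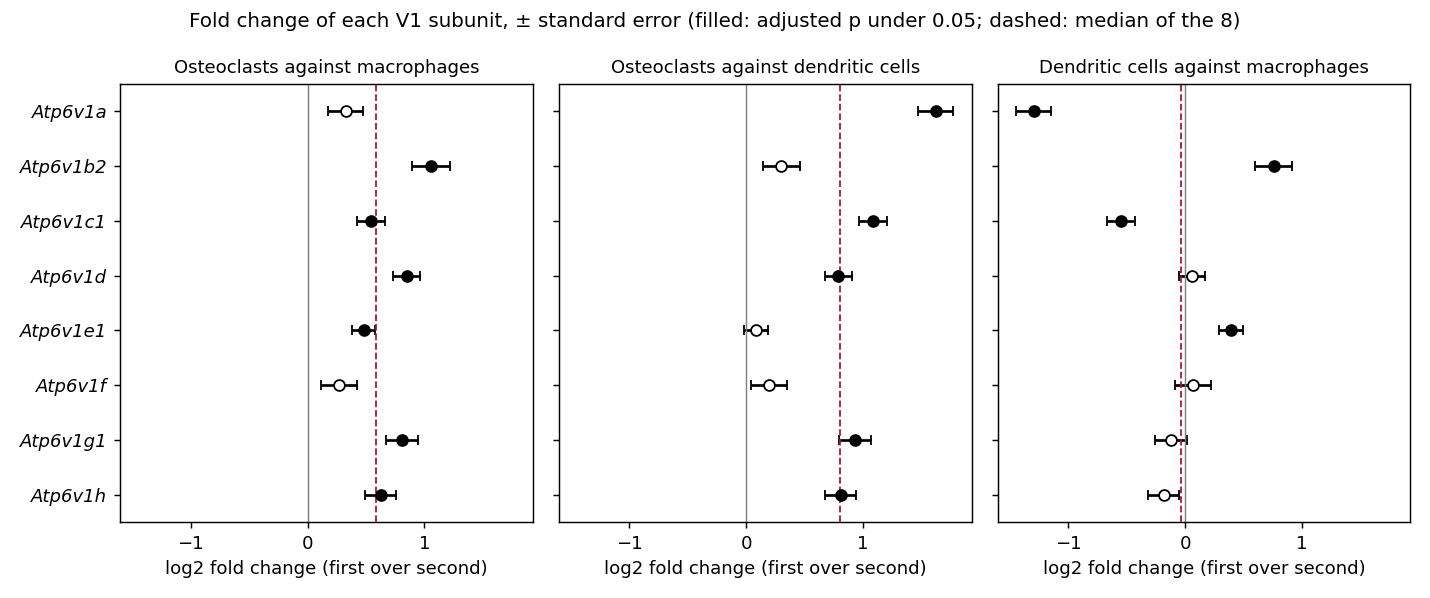
Log2 fold change (x axis) of the 8 detected V1 genes (y axis) in the 3 comparisons of cell types, with bars of ± 1 standard error. Filled points have an adjusted p under 0.05 and the dashed line is the median of the 8. All points lie above 0 in both osteoclast comparisons, while in dendritic cells against macrophages Atp6v1a is at -1.30 and Atp6v1b2 at 0.76.

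Since A and B enter the ring in equal number, the ratio of their messages was compared per length of the longest annotated transcript. Atp6v1a over Atp6v1b2 was 0.649, 1.08 and 0.259 in osteoclasts, macrophages and dendritic cells. Each ratio carries a library spread of 0.31 on the log2 scale, taken from the dispersions implied by the authors' p-values. The shift in log2 fold change between the 2 genes was -2.05 from macrophages to dendritic cells, a 4.15-fold change of the ratio. This was 6.63 times the sum of the 2 standard errors (0.31), which is the largest error that any covariance between the genes allows. The shift was 1.32 for osteoclasts against dendritic cells (4.26 times that sum) and -0.73 for osteoclasts against macrophages (2.36 times). The levels of the ratio depend on the length used, and per coding length they were 0.805, 1.34 and 0.321, while the order and the shifts between cell types do not depend on it.

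Levels per transcript length are given in parts per 1000000 of the summed per-length levels of a cell type. In osteoclasts Atp6v1b2 led with 938, followed by Atp6v1a with 608, Atp6v1g1 with 530 and Atp6v1f with 452, and from Atp6v1a to Atp6v1f no neighbours differed beyond the library spread. Then came Atp6v1e1 with 241, Atp6v1c1 with 186 and Atp6v1d with 179, of which the last pair did not differ beyond it, and Atp6v1h with 87.8. In macrophages Atp6v1a (485), Atp6v1b2 (449) and Atp6v1f (375) led, each within the spread of its neighbour. In dendritic cells Atp6v1b2 led with 621 and Atp6v1a was the fifth with 161, within the spread of Atp6v1e1 at 186. Atp6v1h was the lowest of the 8 in all 3, at 56.8 in macrophages and 40.8 in dendritic cells. The order of the other genes depended on the length used. Per coding length Atp6v1g1 (393) stood above Atp6v1b2 (336) in macrophages, and Atp6v1g1 (712) above Atp6v1a (582) in osteoclasts. In dendritic cells Atp6v1a (150) was then below Atp6v1d (171). Per union of exons Atp6v1g1 led in osteoclasts with 683, before Atp6v1b2 with 643.

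Dividing these levels by the copies of each subunit in a complex (3 of A, B, E and G and 1 of C, D, F and H, from textbook structures) gives a subunit balance. A value of 1 marks the median of the 8 subunits. F was the highest in each cell type, at 2.48, 3.29 and 4.39 in osteoclasts, macrophages and dendritic cells. C, D and G lay near the median per transcript length, from 0.872 to 1.15 over the 3 cell types. Per coding length D was at 1.55, 1.42 and 1.46 in osteoclasts, macrophages and dendritic cells, and C at 1.40, 1.59 and 1.07. Per transcript length E (0.441) and H (0.481) were the low subunits in osteoclasts, a gap within the library spread. They were also the low ones in macrophages, with E at 0.505 and H lowest at 0.498. In dendritic cells H was lowest at 0.557, followed by A at 0.730, with E at 0.846. Which subunit was lowest depended on the length used: per coding length it was H in osteoclasts and macrophages and A in dendritic cells. Per transcript length A moved from 1.42 in macrophages and 1.11 in osteoclasts to 0.730 in dendritic cells. B stood at 1.31, 1.71 and 2.82 in the same order. The highest subunit exceeded the lowest 5.62-fold, 6.60-fold and 7.87-fold in osteoclasts, macrophages and dendritic cells. These are levels of mRNA, and per coding length the highest subunit, again F, exceeded the lowest 3.49-fold, 4.47-fold and 5.93-fold.

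**Figure D3:**
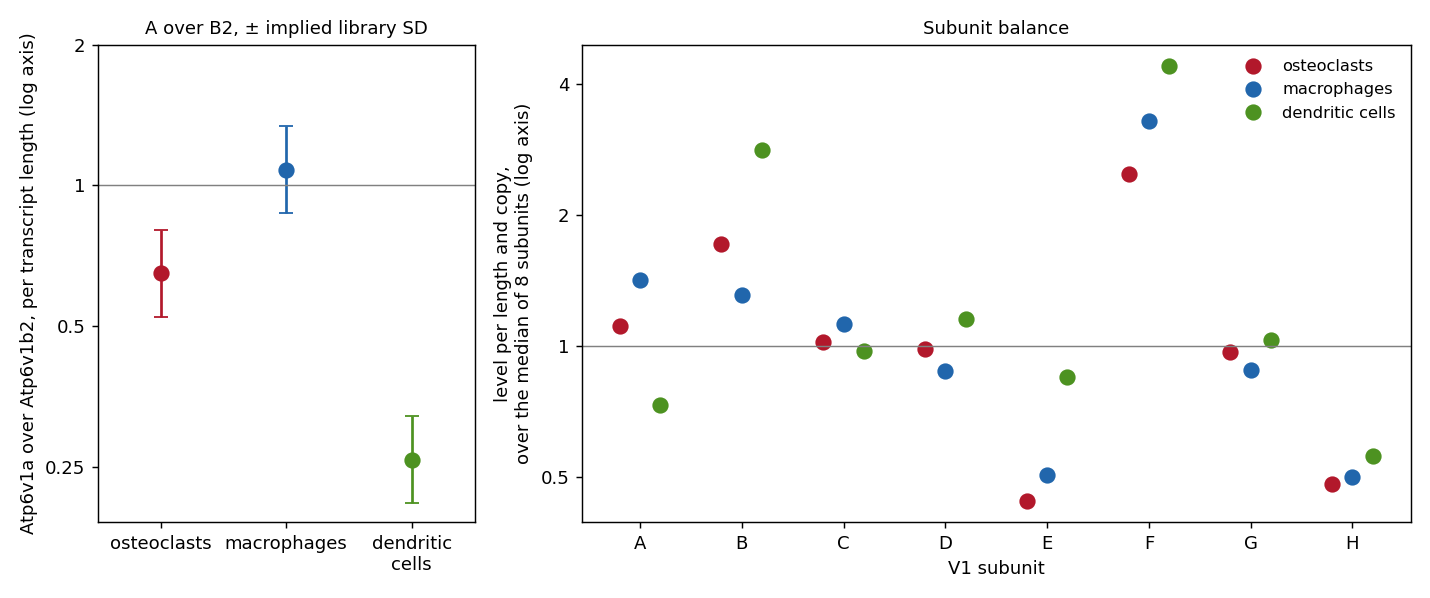
Left: level per transcript length of Atp6v1a over Atp6v1b2 (log axis) in the 3 cell types, with bars of ± 1 implied library SD. Right: level per transcript length and copy of the 8 V1 subunits, over their median (log axis), in osteoclasts, macrophages and dendritic cells. Per transcript length A and B lie close in macrophages (1.42 and 1.31) and apart in dendritic cells (0.730 and 2.82). The closeness depends on the length used: per coding length A over B2 was 1.34 in macrophages and 0.805 in osteoclasts. F is the highest in all 3.

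Of the V1 isoforms that are not members, only Atp6v1g2, best known from neurons, was measured above traces. Its means were 93.4, 133 and 129 in osteoclasts, macrophages and dendritic cells, and it was called in no comparison (lowest DESeq2 adjusted p = 0.13, for osteoclasts against macrophages, at -0.50 ± 0.25). The libraries held 86.7, 129, 68.6 and 89.4 normalised reads in osteoclasts, 154, 94.5, 114 and 170 in macrophages and 148, 93.9, 153 and 122 in dendritic cells, so all 3 overlapped. Its exons overlap those of Nfkbil1 on the other strand, at means of 138, 151 and 194. Atp6v1c2 rested on 1, 1 and 3 reads, Atp6v1e2 on 3 reads in 1 dendritic cell library, and Atp6v1g3 was at 0. Per transcript length Atp6v1g1 stood at 530, 301 and 226 against 5.10, 7.26 and 5.75 for Atp6v1g2.

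The membrane sector was measured through 12 V0 and accessory genes, of which 11 were tested. In osteoclasts against macrophages 8 rose and 1 fell (14.5% and 14.7% of all genes tested), with a median of 0.35 against 0.58 for V1. Those with the smallest p were Atp6v0d2, the V0 isoform tied to osteoclast fusion, at 2.48 ± 0.34 and Atp6v0c, the proton-carrying ring, at 1.41 ± 0.20, while Atp6v0a1 fell by 0.53. Against dendritic cells 5 rose and 2 fell in osteoclasts (16.8% and 20.1% of all genes), among them Atp6v0b at 1.01 ± 0.12 and Atp6v0a2 at -1.01 ± 0.10. Atp6v0d2 itself was not called there, at -0.20 ± 0.34. Between dendritic cells and macrophages 5 rose and 3 fell (20.3% and 16.4% of all genes). V1 over V0, as summed levels per length, was 0.536, 0.601 and 0.479 in osteoclasts, macrophages and dendritic cells.

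Genes that build or regulate the pump moved in both directions between dendritic cells and macrophages. Of 3 tested factors of assembly in the endoplasmic reticulum, Vma21 was lower in dendritic cells than in macrophages (-0.93 ± 0.19) and lower there than in osteoclasts (1.06 ± 0.19 for osteoclasts against dendritic cells). Ccdc115 went the other way, at 0.42 ± 0.10 in dendritic cells against macrophages. Of 10 tested genes for reversible joining of V1 to V0 (the RAVE complex, TLDc proteins and aldolases), 5 rose and 4 fell in dendritic cells against macrophages, where 20.3% of all genes tested were called higher and 16.4% lower. Dmxl1, a RAVE scaffold, fell (-1.50 ± 0.20) and Oxr1, a TLDc protein, fell (-0.97 ± 0.15), whereas Aldoc (1.67 ± 0.21) and Rogdi (1.30 ± 0.26) rose. In osteoclasts against macrophages 2 of the 10 rose and 2 fell, near the 14.5% and 14.7% of all genes called higher and lower. Against dendritic cells 4 rose and 2 fell in osteoclasts, where 16.8% of all genes were called higher and 20.1% lower.

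The shares of all genes called, just given for each comparison, apply to the next lists too. Of the 4 MiT/TFE factors, 1 rose in osteoclasts against macrophages (Tfec, 0.76 ± 0.25) and 0 fell. Mitf had means of 2661, 2651 and 2602 in osteoclasts, macrophages and dendritic cells and was called in none of the comparisons. Tfec was higher in dendritic cells than in macrophages (2.55 ± 0.25) and Tfe3 lower (-0.36 ± 0.12). Of 7 acid secretion partners, 5 rose in osteoclasts against macrophages and 0 fell, led by Car2, carbonic anhydrase 2, at 6.76 ± 0.40 and the sodium-proton exchanger gene Slc9b2 at 3.84 ± 0.26. Against dendritic cells 5 rose and 1 fell (Car2, -0.76 ± 0.32).

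The gene closest to the median profile of the 8 V1 genes, by Euclidean distance of centred log2 means over the 3 cell types, was Pole2, a DNA polymerase subunit, at 0.02. Nifk, Tars and Mars had distances of 0.03 each. Among the members Atp6v1h was nearest to that profile, at 0.07, and Atp6v1a was farthest, at 0.87, with Atp6v1b2 next at 0.61. Likeness over 3 means is a description.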

How the data were processed

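RNA-seq of 12 libraries (TruSeq Stranded mRNA, per the labels' protocols; 50-base reads) was used as the authors' deposited table of comparisons of 46072 genes. Per the submitters' processing notes the tools include DESeq2 2.13, Cufflinks 2.1.1, TopHat2, Bowtie2 and bcl2fastq, and the build is GRCm38. No source used here gives the role of each tool or the strand setting. Per the file headers the table holds 2 means, the log2 fold change and raw and adjusted p-values for each pair of cell types. The deposited means (unit not named in the header) behave as averages over 4 libraries of reads scaled by size factors. Log2 fold changes and p-values are the authors' own, and no column belongs to a single sample. The planned use of those calls at an adjusted p under 0.05 was kept.

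Standard errors were taken as fold change over the two-sided normal score that its p-value implies, and the dispersion, hence the library spread, follows from it. Because means are printed to 15 significant digits, all sets of whole reads that give a mean were listed by lattice reduction. Every gene with a mean up to 500 had 1 set. Above that, sets were weighted by their spread against the implied dispersion, and those with 99% of the weight were retained. The procedure was tested on simulated means that did not exceed 10000, so it was not tested for larger means. Where no set held 99%, the text gives the range of the retained sets. Size factors ran from 0.975 to 1.04.

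Lengths came from GENCODE M21 (GRCm38) and promoters from RefSeq. CPM is relative to the sum of the means. The members and lists were chosen with earlier results of these data known. All 9 members were named. For other lists counts are given with at most the 2 smallest p in each direction. Mitf, and Atp6v0d2 against dendritic cells, were chosen after their values were seen. The pattern rule names the 5 closest genes, of which 1 is not reported here. Alternatives changed the low-count filter, the scaling, the threshold, the length and the isoforms added, and left out each library where reads were recovered. Python 3.11.15, numpy 2.4.6, pandas 2.3.3 and scipy 1.17.1 were used.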

Additional observations from a re-analysis of the deposited data

How the results depend on the processing

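Calls of the 8 tested members were compared under 5 alternatives in 3 comparisons, 120 calls in all, and 5 changed, all when the totals of the cell types were made equal. In osteoclasts against dendritic cells the count then went from 5 to 8, with 25.1% of all genes called higher and 15.8% lower in place of 16.8% and 20.1%. In dendritic cells against macrophages these shares became 16.7% and 22.3%, in place of 20.3% and 16.4%. The median against dendritic cells went from 0.80 to 0.99. Atp6v1a in osteoclasts against macrophages (adjusted p = 0.044) and Atp6v1h in dendritic cells against macrophages (adjusted p = 0.033, lower) were also gained. No call was lost at an adjusted p under 0.01, with no low-count filter, among genes of at least 1 CPM or with upper-quartile scaling. Equal totals shift the fold changes by up to 0.19 and upper quartiles by up to 0.08. Per coding length the ratio of A to B2 was 0.805, 1.34 and 0.321 in osteoclasts, macrophages and dendritic cells, and per union of exons 0.853, 1.42 and 0.340. The highest over the lowest subunit was 3.49, 4.47 and 5.93 per coding length and 7.88, 10.1 and 12.0 per union of exons, in the same order. The cause was not tested. Adding C2, E2, G2 and G3 left the quotients per transcript length (5.62, 6.60 and 7.87) as they were to 3 digits. Leaving out each library in turn was possible for 6 members (not Atp6v1a or Atp6v1b2) as a ratio of means with no test: none of their called differences changed sign, and the widest range was 0.42 to 0.67, for Atp6v1c1 in osteoclasts against macrophages. Without macrophage library b, chosen after seeing the data, each ratio moved by less than its library spread. Leaving out 1 of 4 libraries can hardly move a mean by more than that, so no conclusion is drawn from it. No paired analysis was possible because the recovered libraries carry no replicate number. Above 10000 normalised reads the libraries of a group could not be told apart by this route.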
